A study of Mus musculus with 24 samples.

Results

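The response of control bone marrow macrophages to receptor activator of NF-κB ligand (RANKL) was compared between day 3 and day 5. The libraries were chosen by genotype alone: of the 24 libraries in the series, the 12 from cells carrying Rosa26-Runx1tg/+ without LysM-Cre were taken, 3 for each combination of day and medium. The cells were mouse bone marrow macrophages expanded on petri dishes, and wells were given macrophage colony-stimulating factor (M-CSF), with or without RANKL. The labels' protocols give 15000 cells per well and an osteoclast medium in which RANKL was at 50 ng/mL and M-CSF at 30 ng/mL. For wells without RANKL, the labels state no M-CSF dose. All 12 libraries carry the Runx1 transgene at the Rosa26 locus, without the Cre of the other 12 libraries, and the labels call these cells wild type controls. Age and the numbers of animals are not given, and no label says whether library numbers 1 to 3 mark animals, cultures or days, so p-values measure only the spread between these libraries, part of which may be technical. The question put to the data was which genes answered RANKL differently at day 5 than at day 3, and in which medium their level had moved with day.

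M-CSF keeps macrophages alive and lets their precursors divide. RANKL, read by the receptor encoded by Tnfrsf11a, drives the same cells through NF-κB, Fos and NFATc1 to fuse into osteoclasts, the cells that dissolve bone mineral with acid and its collagen with cathepsin K. Precursors divide early, and multinucleated osteoclasts are generally held to have left the cell cycle and to be rich in mitochondria. In a bulk library, fewer cells of a type and less RNA per cell cannot be told apart.

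Control libraries held 19122122 to 23923205 counts, and 15035 of the 54532 genes in the table (27.6%) passed the filter on low counts. Levels are in CPM, the counts of a gene per 1000000 counts of the scaled library, given in the order of library numbers 1, 2 and 3. Groups of 3 libraries often did not overlap. With RANKL, 3848 of the 15035 genes were higher in every day 5 library than in any day 3 library, and 3632 were lower. In M-CSF these counts were 3181 and 2681. The labels call every library osteoclasts, and the markers went against this in M-CSF alone: 8 osteoclast markers summed to 51.4 to 58.1 CPM at day 3 and 45.5 to 65.2 CPM at day 5, with 2 of the 8 at 0 in each group, against 35770 to 49230 and 40340 to 42810 CPM with RANKL. The libraries without RANKL are therefore called macrophages in M-CSF. A sum over 7 macrophage markers was 7135 to 8817 CPM at day 3 and 8036 to 8423 CPM at day 5 in M-CSF, and 3005 to 4226 and 3291 to 3459 CPM with RANKL. Some libraries stood apart from others of their group, and 3 such sets are described here. At day 3 in M-CSF, library 1 was low in DNA replication transcripts. At day 3 with RANKL, library 3 had the lowest sum of osteoclast markers. At day 5 in M-CSF, libraries 1 and 2 were high in collagen and other matrix transcripts and library 3 was not. The effect of leaving these libraries out is given for the lists and genes that it changed most. Without libraries 1 and 2 of day 5 in M-CSF, 77 of the 118 named genes with a called interaction kept the call.

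The interaction is the RANKL response at day 5 minus that at day 3, on the log2 scale, which is the same quantity as the day change with RANKL minus the day change in M-CSF. By edgeR's quasi-likelihood test with Benjamini-Hochberg adjustment at 0.05, the response was higher at day 5 for 1091 genes (7.26% of those tested) and lower for 1012 (6.73%). In M-CSF alone 1838 genes rose with day (12.2%) and 1732 fell (11.5%), and with RANKL 2114 rose (14.1%) and 1913 fell (12.7%). The day change counts moved with single libraries. Without library 1 of day 3 in M-CSF, 1003 genes rose and 917 fell in M-CSF, and without library 1 of day 5 in M-CSF these counts were 1079 and 970. Without library 2 of day 3 in M-CSF, 1168 rose there. With RANKL, 1317 rose without library 1 and 1278 without library 2 of day 3, and 1154 fell without library 1 of day 5.

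The medium that moved was read from the day changes called at the same threshold. Of the genes with a higher response at day 5, 420 (38.5%) moved in the RANKL libraries only, 296 (27.1%) moved in M-CSF only, by falling, and 301 (27.6%) fell in M-CSF and rose with RANKL. Of the genes with a lower response, 448 (44.3%) moved in the RANKL libraries only, 366 (36.2%) moved in M-CSF only, by rising, and 122 (12.1%) rose in M-CSF and fell with RANKL. The remaining genes moved in the same direction in both media by different amounts (35 higher and 5 lower) or passed the threshold in neither (39 higher and 71 lower). A medium in which no move was called is not shown to have been still. By size alone, the larger of the day changes was that in M-CSF for 530 of the 1091 (48.6%) and for 483 of the 1012 (47.7%). In 317 genes (2.11%) the RANKL response itself was called at both days with opposite signs, 273 from lower to higher and 44 from higher to lower.

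**Figure D1:**
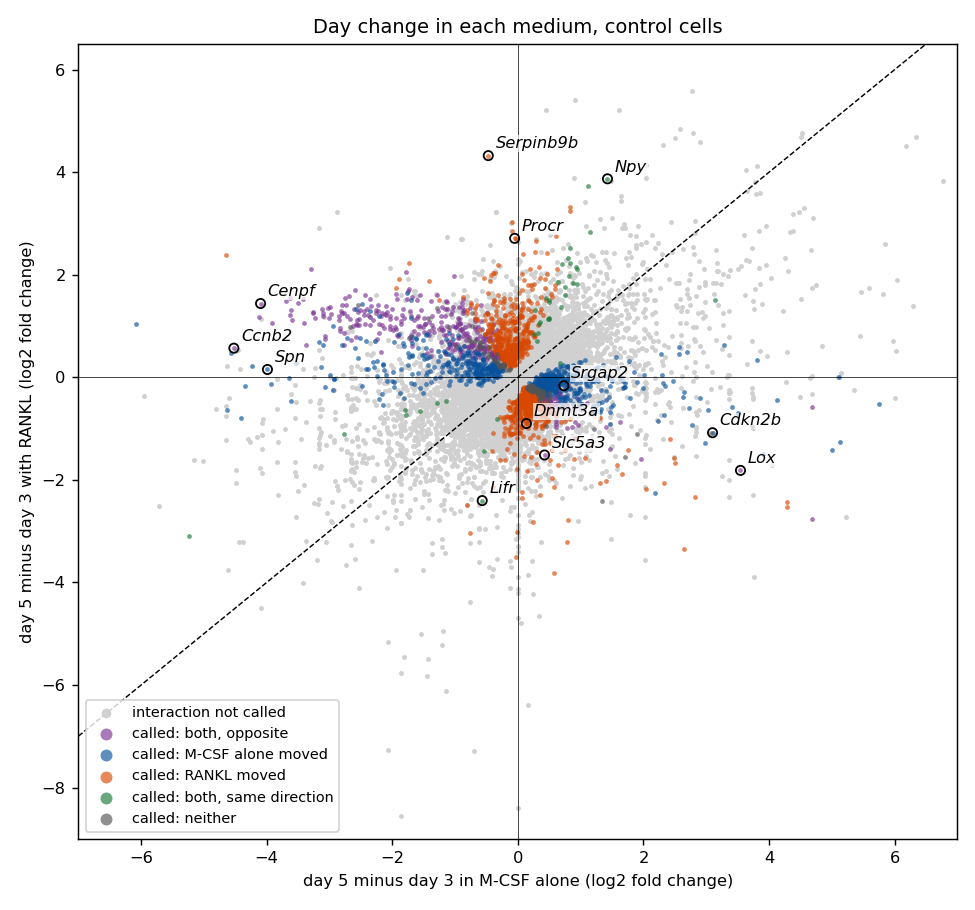
Each point is a tested gene; the x axis is its day 5 minus day 3 log2 fold change in M-CSF alone and the y axis the same change with RANKL, both from the fitted model, and colours give the medium that moved for genes with a called interaction. The distance from the dashed line of equal change is the interaction: a band of genes at the upper left, with Ccnb2 and Cenpf, fell in M-CSF and rose with RANKL, and Procr and Serpinb9b lie near the vertical axis because they moved with RANKL.

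Among the named genes, which average at least 1 log2 CPM, those of mitosis gave the largest positive values. All 30 genes of the mitosis list had a higher response at day 5, with a median interaction of 3.95 on the log2 scale against -0.02 over all tested genes, and each of the 30 both fell in M-CSF and rose with RANKL. The median day change was -2.78 in M-CSF and 1.22 with RANKL, and the fall in M-CSF was the larger change in 29 of the 30. The RANKL response of all 30 was called lower at day 3, where 29.7% of tested genes were lower, and called higher at day 5, where 26.4% were higher.

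The promoters of the named cycling markers, Ccnb2 and Cenpf, are shown because mitotic genes are known to share a CCAAT box, bound by NF-Y, and a cell cycle homology region, bound by the MuvB complex. They are RefSeq promoters of build GRCm38.p6, from 250 bases before to 50 after the start, 5′ to 3′ on the gene's strand (minus for all 3), with the CCAAT box on either strand in capitals for Ccnb2 and Cenpf, and likewise the region's letters, which were searched as TTTGAA or as TTCGAA. Pola1, the catalytic subunit of DNA polymerase alpha, is shown for contrast because it is the only called replication gene whose promoter in the table holds E2F letters (TTTGGCGC, TTTCCCGC, TTTGGCGG, TTTCCCGG or TTTCGCGC, either strand). In its sequence only the E2F letters are in capitals, and a CCAAT box on the other strand is left in lower case. The windows are chr9:70421505-70421804, chr1:189688037-189688336 and chrX:93632106-93632405.
Ccnb2: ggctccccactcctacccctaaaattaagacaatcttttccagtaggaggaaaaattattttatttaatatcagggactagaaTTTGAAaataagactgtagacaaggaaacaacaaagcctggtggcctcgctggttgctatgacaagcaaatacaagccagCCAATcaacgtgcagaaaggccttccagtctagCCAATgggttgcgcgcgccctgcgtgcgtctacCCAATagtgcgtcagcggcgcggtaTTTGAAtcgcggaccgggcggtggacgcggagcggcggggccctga
Cenpf: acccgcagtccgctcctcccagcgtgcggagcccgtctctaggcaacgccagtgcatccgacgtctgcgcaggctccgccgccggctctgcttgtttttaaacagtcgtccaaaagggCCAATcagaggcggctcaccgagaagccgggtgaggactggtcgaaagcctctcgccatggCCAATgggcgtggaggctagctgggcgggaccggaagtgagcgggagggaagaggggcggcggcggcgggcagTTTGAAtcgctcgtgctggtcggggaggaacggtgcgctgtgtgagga
Pola1: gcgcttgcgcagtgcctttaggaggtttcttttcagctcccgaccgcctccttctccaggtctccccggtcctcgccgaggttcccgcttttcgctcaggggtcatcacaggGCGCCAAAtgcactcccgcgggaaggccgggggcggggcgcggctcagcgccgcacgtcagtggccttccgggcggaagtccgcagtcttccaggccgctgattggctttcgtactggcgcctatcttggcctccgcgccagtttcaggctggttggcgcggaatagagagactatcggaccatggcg

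Of the 25 mitosis genes with a promoter in the RefSeq table, 20 (80.0%) held CCAAT, 20 (80.0%) held TTTGAA or TTCGAA and 18 (72.0%) held both. Over all 27025 genes of that table the shares were 41.1%, 21.7% and 8.61%. E2F letters were in 2 of the 25 mitosis genes (8.0%) and in 12 of 24 DNA replication genes (50.0%), against 4.1% of all genes and 7.19% of tested genes with a promoter in the table. Of the replication genes, 17 (70.8%) held CCAAT and 4 (16.7%) held TTTGAA or TTCGAA. These are matches of letters in a fixed window, and they overlap where the motifs share bases.

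Ccnb2, the B-type cyclin that activates Cdk1 at mitotic entry (chromosome 9, 70407692 to 70421547), had 97.6, 94.4 and 83.9 CPM at day 3 in M-CSF and 3.59, 4.12 and 4.28 CPM at day 5. In RANKL wells Ccnb2 had 32.3, 36.8 and 48.1 CPM at day 3 and 56.0, 59.1 and 58.5 CPM at day 5. No group overlapped another: macrophages in M-CSF were the highest at day 3 and the lowest at day 5. The interaction was 5.09 (SE 0.21, adjusted p = 2.3e-12), made of a change of -4.52 in M-CSF and 0.57 with RANKL.

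Cenpf, a kinetochore protein (chromosome 1, 189640606 to 189688086), had 128, 97.9 and 116 CPM at day 3 and 7.78, 4.50 and 7.63 CPM at day 5 in M-CSF. With RANKL it had 31.9, 30.9 and 42.7 CPM at day 3 and 109.9, 91.0 and 85.2 CPM at day 5. The day 5 RANKL libraries reached the range of the day 3 M-CSF libraries, and the other groups stood apart. The interaction was 5.54 (SE 0.34, adjusted p = 4.2e-10), the largest positive value among named genes.

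Mki67, the proliferation antigen that coats mitotic chromosomes, was at 599.9, 731 and 854 CPM in M-CSF at day 3 and at 108, 77.5 and 120.2 CPM at day 5. With RANKL it was at 223, 245 and 354 CPM at day 3 and 594, 535 and 479 CPM at day 5. Its interaction of 3.80 was made of -2.84 in M-CSF and 0.97 with RANKL. Library 3 was the highest of the day 3 RANKL libraries for 29 of the 30 mitosis genes, and for 5519 of the 15035 tested genes. All 30 calls stood without library 3. The smallest interaction of the list was that of Cdk1, the mitotic kinase, at 2.57 (SE 0.33).

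Kif20a and Kif2c, kinesins of the spindle, Plk1, the polo kinase, and Cdc20, an activator of the anaphase-promoting complex, were likewise lowest at day 5 in M-CSF and higher at day 5 than at day 3 with RANKL, with interactions of 4.51, 4.72, 4.30 and 4.47. Hmmr and Ube2c, the ubiquitin-conjugating enzyme of mitotic exit, were at 4.84 and 4.95. Beyond the list, the largest positive interactions among named genes included Aspm, a spindle pole protein (5.30), Pif1, a DNA helicase (5.19), Sapcd2 (5.41), Pimreg (4.95), Cdkn3, a phosphatase that acts on Cdk1 (4.97), and Fam83d (4.93). All of these fell in M-CSF and rose with RANKL. Stmn1, a microtubule destabiliser, Cep55, a midbody protein, and Knstrn, a kinetochore protein, also turned from a lower to a higher RANKL response, with interactions of 3.24, 4.27 and 3.64.

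**Figure D2:**
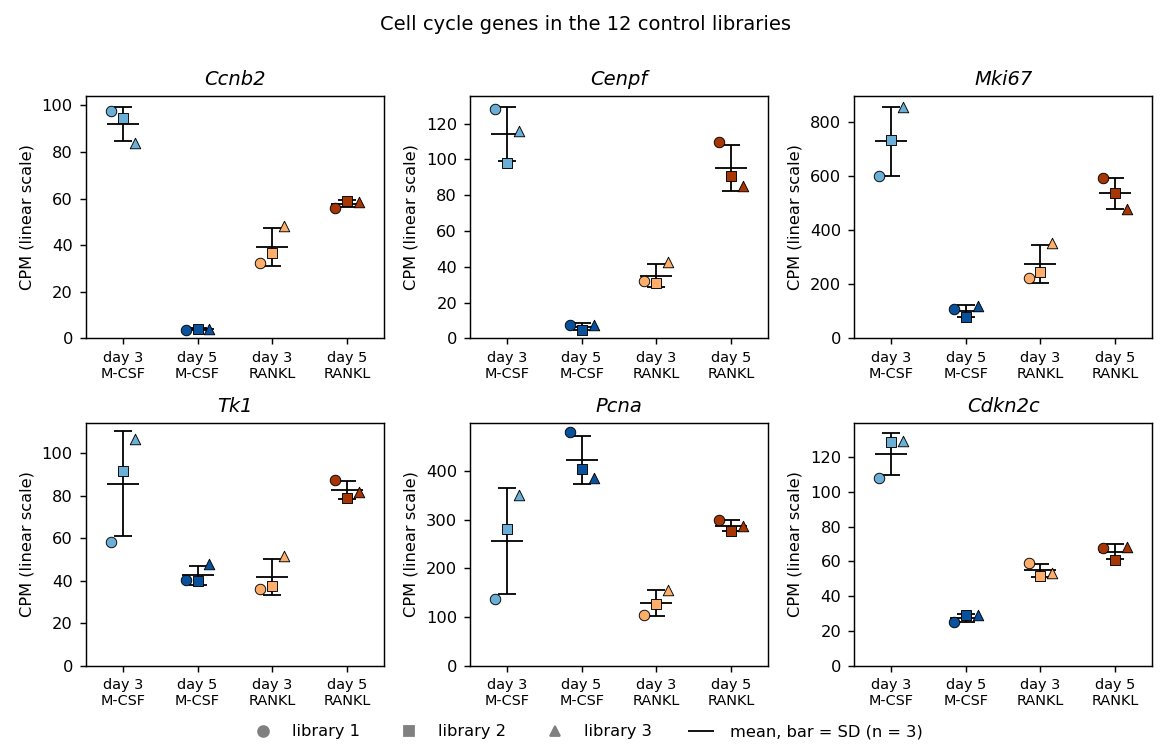
CPM of 6 cell cycle genes in each of the 12 control libraries on linear axes; marker shapes give the library number, and lines the mean and SD of 3 libraries. The mitotic genes Ccnb2, Cenpf and Mki67 are lowest at day 5 in M-CSF and higher at day 5 than day 3 with RANKL, whereas Pcna is highest at day 5 in M-CSF.

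Genes of DNA replication moved less than the mitotic genes. Of 30, 6 had a higher response at day 5, beside 7.26% of tested genes, and none a lower one, with a median interaction of 0.65. In M-CSF the median day change was 0.09, and 3 rose and 3 fell, beside 12.2% and 11.5% of tested genes. With RANKL it was 0.86, and 14 rose and none fell, beside 14.1% and 12.7%. The change with RANKL was the larger in 25 of the 30. The list summed to 988, 2167 and 2774 CPM at day 3 in M-CSF and to 2319 to 2370 CPM at day 5. With RANKL it summed to 1048 to 1684 CPM at day 3 and 2235 to 2356 CPM at day 5. Library 1 of day 3 in M-CSF was the lowest of its group for all 30 genes, and for 6165 of the 15035 tested genes. Without it 12 of the 30 were called higher. Library 3 of day 3 with RANKL was the highest of its group for all 30, and for 5519 of the tested genes, and without it 10 were called higher. The sum of library 1 of day 3 in M-CSF over the mitosis list was 3199 CPM, beside 3686 and 4027 CPM in libraries 2 and 3. Its part in the lower count was not tested beyond this.

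Tk1, thymidine kinase, had 58.4, 91.5 and 107 CPM at day 3 and 40.3, 39.8 and 47.8 CPM at day 5 in M-CSF. Its RANKL values were 36.1, 37.4 and 51.8 CPM at day 3 and 87.6, 79.0 and 81.6 CPM at day 5. Its levels thus fell in one medium and rose in the other, and its interaction was 1.99 (SE 0.31, adjusted p = 0.00013). Rrm1, the large subunit of ribonucleotide reductase, and Tyms, thymidylate synthase, moved in the same way, with interactions of 1.68 and 2.01. Mcm10, Pole and Pola1, which load or form replicative polymerases, were also called, at 1.73, 1.38 and 1.17. The call on Pole was lost in 6 and that on Pola1 in 9 of the 12 fits that left out a single library.

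Pcna, the sliding clamp of replication, chosen after its values were seen, had 138, 280.6 and 350.5 CPM at day 3 and 480.3, 404 and 386 CPM at day 5 in M-CSF. With RANKL it had 104, 126 and 157 CPM at day 3 and 299.5, 277 and 288 CPM at day 5. It rose with day in both media, by 0.72 and 1.16 on the log2 scale, and the interaction was 0.43 (SE 0.37, adjusted p = 0.50). The lowest interaction in the list was that of the licensing factor Cdt1, at -0.93 (SE 0.33, adjusted p = 0.064). Cdt1 was called lower with RLE size factors (adjusted p = 0.0469), from control libraries alone (0.0392), by DESeq2 (0.0198) and with a replicate block (0.0224).

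Among 16 cell cycle inhibitors and D cyclins, 5 had a higher response at day 5 and 1 a lower one, beside 7.26% and 6.73% of tested genes. The median interaction was 0.57. Cdkn2c, the Cdk4 and Cdk6 inhibitor p18, had 108, 129 and 129 CPM at day 3 and 24.9, 28.9 and 29.1 CPM at day 5 in M-CSF. With RANKL it had 59.2, 51.9 and 53.4 CPM at day 3 and 68.0, 60.6 and 68.4 CPM at day 5. Its fall of 2.14 in M-CSF was called and its change of 0.26 with RANKL was not, and the interaction was 2.40 (SE 0.18, adjusted p = 3.2e-09). Cdkn2d, the related inhibitor p19, fell by 1.66 in M-CSF and rose by 0.91 with RANKL, and Cdkn1a, the p53 target p21, rose by 0.75 with RANKL and had an interaction of 1.10. Btg1 and Ccng1 fell in M-CSF, with interactions of 1.32 and 0.48.

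Cdkn2b, the inhibitor p15, went the other way. It had 0.93, 1.77 and 3.14 CPM at day 3 and 19.3, 16.6 and 14.9 CPM at day 5 in M-CSF, so the groups did not overlap. With RANKL it had 21.6, 20.7 and 16.5 CPM at day 3 and 9.32, 8.56 and 9.94 CPM at day 5. The rise of 3.10 in M-CSF was called, the change of -1.08 with RANKL was just outside the threshold (adjusted p = 0.051), and the interaction was -4.18 (SE 0.60, adjusted p = 6.2e-05).

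Outside the mitosis list, several genes had a higher response at day 5 with a called fall in M-CSF. Spn, the sialophorin CD43 of leukocyte surfaces, had 31.4, 29.7 and 31.9 CPM at day 3 and 1.80, 1.57 and 2.47 CPM at day 5 in M-CSF. With RANKL it had 37.8, 23.6 and 22.8 CPM at day 3 and 26.2, 33.4 and 33.99 CPM at day 5, and these ranges overlapped. The interaction was 4.14 (SE 0.44, adjusted p = 1.0e-06). H2afz, a histone H2A variant, fell from a mean of 331 to 127 CPM in M-CSF and stood at 349 and 328 CPM with RANKL. Sun2, of the nuclear envelope, and Espl1, the separase that cuts cohesin, had the same class, with interactions of 1.68 and 2.61, as did the death receptor Fas (1.65) and the collagenase Mmp8 (1.81).

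Other genes had a lower response at day 5 with a called rise in M-CSF. Srgap2, a regulator of Rac and of membrane curvature, had 190.2, 186 and 199.6 CPM at day 3 and 334, 317 and 305 CPM at day 5 in M-CSF, against 137, 128 and 141 and then 123, 122 and 118 CPM with RANKL. Its interaction was -0.89 (SE 0.10, adjusted p = 1.3e-06). Pik3ap1, an adaptor of PI3 kinase, and Rbm47, an RNA-binding protein, rose by 1.19 and 0.70 in M-CSF, with interactions of -1.25 and -0.82. Jag1, a Notch ligand, rose by 2.78 there (4.24, 12.8 and 26.9 CPM at day 3 and 132, 95.9 and 75.7 CPM at day 5) and had an interaction of -3.72. Tnfaip3 and Nfkbia, inhibitors of NF-κB that are also its targets, had RANKL responses of 3.78 and 3.32 at day 3 and 1.83 and 2.56 at day 5. They were the 2 called genes of 18 tested inflammatory genes. The Fc receptor gene Fcgr1 rose by 1.44 in M-CSF and had an interaction of -1.82.

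**Figure D3:**
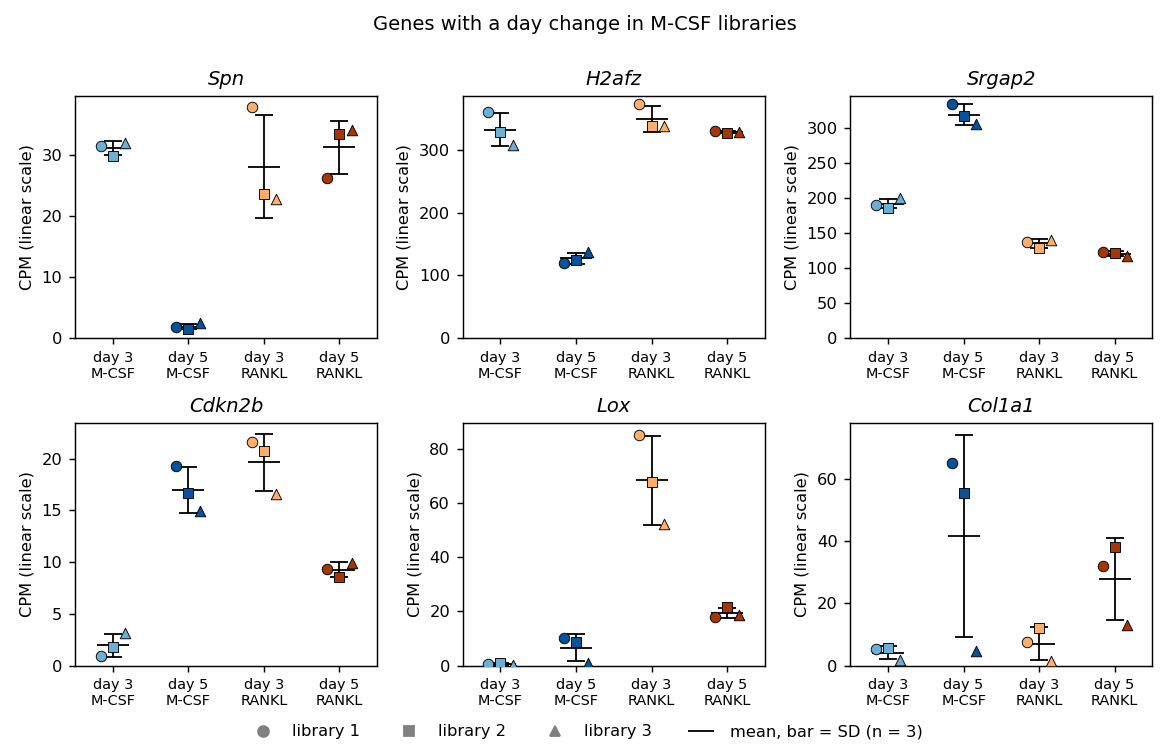
CPM of 6 genes with a day change in M-CSF in each of the 12 control libraries on linear axes; shapes give the library number, and lines the mean and SD of 3 libraries. Spn and H2afz are low only at day 5 in M-CSF, and Srgap2 and Cdkn2b rise there. Lox and Col1a1 are higher at day 5 in M-CSF in libraries 1 and 2 than in library 3, with Lox below every RANKL library.

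Among the named genes, the largest negative interactions were mostly of matrix and cytoskeletal genes with low counts in M-CSF. Lox, the enzyme that cross-links collagen, had 0.51, 1.03 and 0.20 CPM at day 3 and 10.3, 8.67 and 0.98 CPM at day 5 in M-CSF, against 85.1, 67.6 and 52.1 and then 18.1, 21.4 and 18.7 CPM with RANKL. Its interaction was -5.36 (SE 1.04, adjusted p = 0.0014). Flnc, a filamin, Hspg2, the basement membrane proteoglycan perlecan, Fstl1, Col5a3 and Ltbp1 had values from -4.57 to -3.99 and the same split in M-CSF at day 5, with library 3 at 0 to 1.24 CPM. Col1a1, a defining gene of matrix-making cells, was at 65.3, 55.4 and 4.69 CPM at day 5 in M-CSF and at 32.1, 38.3 and 12.9 CPM with RANKL, and its interaction was -1.35 (SE 1.38, adjusted p = 0.59). Of the list of 12 stromal and osteoblast markers, 5 passed the filter and none was called. The list summed to 70.9, 60.9 and 7.06 CPM at day 5 in M-CSF and to 11.7, 9.97 and 6.09 CPM at day 3. With RANKL it summed to 18.1, 22.1 and 13.03 CPM at day 3 and 40.2, 49.6 and 22.6 CPM at day 5. Library 3 thus had the lowest sum in each group. The part of these markers in the matrix values was not tested. With libraries 1 and 2 of day 5 in M-CSF left out, the interactions of Lox, Flnc and Hspg2 were -2.60, -1.76 and -1.59, that of Ltbp1 was -0.80, and none of these was called, an alternative chosen after the data were seen, and those of Fstl1 and Col5a3 were above 0. The call on Fstl1 was lost without library 2 alone, that on Ltbp1 without library 1 alone, and that on Col5a3 in 7 of the 12 fits without a single library.

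Fitted values of other genes in this group rest on counts near 0. Scin, an actin-severing protein, and Htr1b, a serotonin receptor, had 0 counts in all 3 day 3 M-CSF libraries and at most 0.21 and 0.45 CPM at day 5, so their fitted interactions of -5.25 and -5.12 depend on the prior count and are no bound. Their calls were lost in 5 and 7 of the 12 fits without a single library. With RANKL, Scin fell from 250.3, 384 and 398 to 229, 230 and 236 CPM. Atf7ip2 (-3.55) and Adamts14 (-3.54) fell with RANKL, the first from 34.7, 23.95 and 13.6 to 7.04, 9.13 and 7.71 CPM while it rose in M-CSF to 2.64, 1.84 and 1.70 CPM. The call on Adamts14 was lost in 8 of the 12 fits without a single library, and its value was -1.69 without libraries 1 and 2 of day 5 in M-CSF.

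In the RANKL libraries, genes of oxidative phosphorylation were lower at day 5. Of 24 genes, 17 had a lower RANKL response at day 5, beside 6.73% of tested genes, and none a higher one. The median interaction was -0.57. With RANKL 23 of the 24 fell, beside 12.7% of tested genes, with a median of -0.51. None of the 24 was called in M-CSF, where the median was 0.05. All 24 were above M-CSF at both days by the same test, beside 29.5% of tested genes at day 3 and 26.4% at day 5. The list summed to 11134 to 12728 CPM at day 3 and 8001 to 8819 CPM at day 5 with RANKL, and to 3453 to 3806 and 3749 to 4015 CPM in M-CSF. The share of counts from mitochondrially encoded genes was 3.65% ± 0.435 (SD, n = 3) at day 3 and 3.44% ± 0.202 (SD, n = 3) at day 5 with RANKL.

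Uqcrc1, a core subunit of complex III (chromosome 9, 108936633 to 108949623), had 601, 607 and 542 CPM at day 3 and 343, 368 and 408 CPM at day 5 with RANKL. In M-CSF it had 155, 155 and 165.5 CPM at day 3 and 162, 176 and 189 CPM at day 5. The RANKL groups did not overlap, as in the same direction for 3632 of the 15035 tested genes. The interaction was -0.80 (SE 0.15, adjusted p = 0.0010). Cyc1, cytochrome c1 of the same complex, fell with RANKL from 415, 425 and 399.5 to 254, 270.2 and 298 CPM, with an interaction of -0.91. Ndufa9 and Ndufs3 of complex I and Atp5b of the ATP synthase had interactions of -0.60, -0.73 and -0.77. Sdha of complex II had the smallest size among the 17, at -0.47, and its call was lost in 6 of the 12 fits without a single library.

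The vacuolar proton pump acidifies the resorption space. Of 15 V-ATPase genes, 6 fell with day in RANKL, beside 12.7% of tested genes. A lower response at day 5 was called for 2, Atp6v0e (-0.50) and Atp6v1e1 (-0.56), beside 6.73% of tested genes. Both calls were lost in most fits without a single library, 10 of 12 for Atp6v0e and 8 of 12 for Atp6v1e1. The median interaction of the list was -0.34, and 7 of the 15 were called lower from the 12 control libraries alone, 4 by DESeq2 and 3 with RLE size factors.

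Genes that counter oxidation mostly rose with day under RANKL, but most were lower with RANKL than in M-CSF. Of 15 tested antioxidant genes, 10 were called lower with RANKL at day 3 and 8 at day 5, beside 29.7% and 23.1% of tested genes. Higher with RANKL were 2 at day 3 and 3 at day 5. The list summed to 2695 to 2840 CPM at day 3 and 4562 to 4882 CPM at day 5 with RANKL. In M-CSF, where 2 rose, it summed to 5786 to 7135 and 8712 to 9241 CPM. The response was higher at day 5 for 6 of the 15 and lower for none, with a median interaction of 0.50. All 6 moved in the RANKL libraries alone, where 10 of the 15 rose, beside 14.1% of tested genes. Nqo1, a quinone reductase and target of Nrf2 (chromosome 8, 107388225 to 107403206), had 7.51, 5.42 and 6.09 CPM at day 3 and 46.6, 36.2 and 41.0 CPM at day 5 with RANKL. In M-CSF it had 20.5, 16.7 and 15.5 CPM at day 3 and 16.2, 16.3 and 18.9 CPM at day 5. It was thus below M-CSF at day 3 and above it at day 5 with no overlap, and its interaction was 2.73 (SE 0.30, adjusted p = 1.6e-06). Prdx1, a peroxiredoxin, rose with RANKL from 589, 585.45 and 569 to 1342, 1251 and 1362 CPM and stayed under the 1922 to 2154 CPM of day 5 in M-CSF. Gsta3, a glutathione transferase, Gclm, the modifier subunit of glutathione synthesis, and Cat, catalase, had interactions of 2.17, 0.89 and 0.94. Srxn1, sulfiredoxin, had 0.81, and its call was lost in 7 of the 12 fits without a single library.

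**Figure D4:**
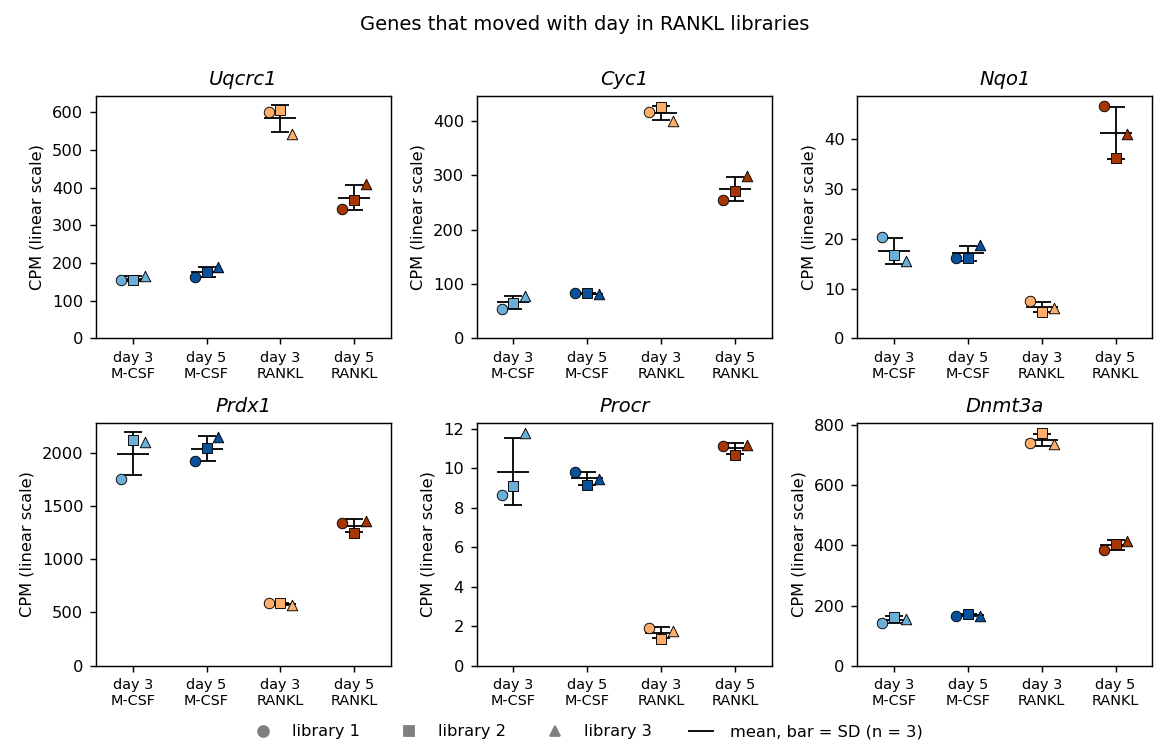
CPM of 6 genes whose called day change was with RANKL, in each of the 12 control libraries on linear axes; shapes give the library number, and lines the mean and SD of 3 libraries. Uqcrc1, Cyc1 and Dnmt3a are highest at day 3 with RANKL, and Nqo1, Prdx1 and Procr are lowest there.

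The genes of the RANKL class with the smallest p included rises and falls. Procr, the endothelial protein C receptor, had 1.90, 1.34 and 1.77 CPM at day 3 and 11.1, 10.7 and 11.2 CPM at day 5 with RANKL, and 8.63 to 11.8 CPM across all 6 M-CSF libraries. Its interaction was 2.76 (SE 0.24, adjusted p = 4.5e-08). Tmem43, of the inner nuclear membrane, and Il7r, the interleukin 7 receptor, rose by 1.45 and 2.40 with RANKL. Serpinb9b, a serine protease inhibitor, had 0.34, 0.26 and 0.72 CPM at day 3 and 10.9, 7.10 and 8.67 CPM at day 5 with RANKL, with an interaction of 4.79 (SE 0.81). Slc16a3, the lactate exporter MCT4, Egr2, a zinc finger transcription factor, and Itgax, the integrin CD11c, rose by 2.11, 2.42 and 1.498 with RANKL. The interaction of Itgax was 1.88, and 1.24 and not called without libraries 1 and 2 of day 5 in M-CSF.

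Dnmt3a, the de novo DNA methyltransferase, fell with RANKL from 741, 775.5 and 738.5 to 384, 406 and 417 CPM and was at 140.2 to 172 CPM across the 6 M-CSF libraries. Its interaction was -1.04 (SE 0.12, adjusted p = 1.7e-06). Hnmt, histamine methyltransferase, Gtf2a1, a subunit of the general factor TFIIA, and Mtmr4, an endosomal lipid phosphatase, fell by 0.95, 0.75 and 0.94. Mtmr4 was above M-CSF at day 3 and below it at day 5.

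Osteoclast resorption genes were above M-CSF at both days. All 22 had a called rise with RANKL at each day, beside 29.5% of tested genes at day 3 and 26.4% at day 5. With day under RANKL 5 of the 22 fell and none rose, beside 12.7% and 14.1% of tested genes. The response was higher at day 5 for 2 genes and lower for 6, beside 7.26% and 6.73% of tested genes. The median interaction was -0.42. Ctsk, cathepsin K, had 10811, 11650 and 8232 CPM at day 3 and 11923, 11941 and 11363 CPM at day 5 with RANKL; its interaction of 1.26 came from M-CSF, where it was at 2.82 to 5.92 and then 1.80 to 2.00 CPM, and the call was lost without library 1 of day 3 in M-CSF. The call on Acp5, the acid phosphatase TRAP (0.94), was lost in 9 of the 12 fits without a single library. Mmp9, gelatinase B, likewise changed from 7.23 to 10.0 CPM to 20.9 to 26.8 CPM in M-CSF, beneath 18723 to 26357 CPM with RANKL, and had an interaction of -1.68. Tnfrsf11a itself, the RANKL receptor, rose in M-CSF from 57.3, 90.7 and 117 to 236, 196 and 183 CPM and was at 290 to 349.9 and 306 to 314 CPM with RANKL, with an interaction of -1.30 (SE 0.30, adjusted p = 0.0057). Itgav, the partner of the β3 integrin, rose in M-CSF by 0.99. Without libraries 1 and 2 of day 5 in M-CSF neither was called, at -1.13 (adjusted p = 0.085) for Tnfrsf11a and -0.86 for Itgav, and 2 of the 22 genes were called lower and 0 higher. Src, the kinase of the sealing zone, fell by 0.89 with RANKL; its interaction of -1.19 was not called without library 2 of day 3 in M-CSF. Ocstamp, a fusion protein, was at -3.32 on under 1 CPM in M-CSF, and its call was lost in 3 of the 12 fits without a single library.

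Of 25 osteoclast regulators, 4 had a lower response at day 5, beside 6.73% of tested genes. The count was 8 with a replicate block, 8 by DESeq2, 7 from the 12 control libraries alone and 6 with RLE size factors. Fosl2, an AP-1 subunit, rose in M-CSF from 45.6, 36.8 and 42.8 to 80.6, 81.5 and 73.0 CPM and fell with RANKL from 1126, 1107 and 1014 to 591, 596 and 594 CPM. Its interaction was -1.77 (SE 0.28, adjusted p = 0.00014). Spi1, encoding PU.1, and Esrra, a nuclear receptor of mitochondrial genes, had the same class, at -0.50 and -0.98. Bhlhe40, a repressor, fell with RANKL (-0.96), and its call was lost in 6 of the 12 fits without a single library.

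Macrophage surface and scavenger genes were mostly lower with RANKL. Of 22, 7 rose and 1 fell with day under RANKL, and 18 were called lower with RANKL at each day, beside 29.7% of tested genes at day 3 and 23.1% at day 5. At day 5 the response was higher for 6 and lower for 1 (Fcgr1), beside 7.26% and 6.73% of tested genes. The median interaction was 0.32. Without libraries 1 and 2 of day 5 in M-CSF, 2 were called higher and 0 lower. Cd36, a scavenger receptor, rose with RANKL from 128, 113 and 135 to 402, 415 and 453.5 CPM and in M-CSF from 1660, 1863 and 1653 to 3149, 2911 and 2617 CPM. The rise was larger with RANKL, by 1.01 (SE 0.17, adjusted p = 0.00039). Trem2, a lipid receptor, and Folr2, a folate receptor, also rose in both media, with interactions of 1.02 and 1.16, and Cd14, the co-receptor for lipopolysaccharide, rose with RANKL by 1.72. Marco, a scavenger receptor, fell by 1.59 in M-CSF and rose by 1.19 with RANKL. The call on Clec7a, the β-glucan receptor (2.05), was lost in 3 of the 12 fits without a single library. Npy, a neuropeptide, led the genes that rose in both media, from 2.53, 2.48 and 3.59 to 40.4, 42.4 and 43.2 CPM with RANKL and from 8.81, 7.27 and 8.59 to 30.9, 19.0 and 16.4 CPM in M-CSF. Its interaction was 2.44 (SE 0.28), and Rnf128, a ubiquitin ligase, and Lpxn, a focal adhesion adaptor, had 1.03 and 1.09. Lifr, the receptor for leukaemia inhibitory factor, fell in both media, further with RANKL, with an interaction of -1.84, as did Nub1 (-0.89).

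A smaller set turned from a higher to a lower RANKL response. Epb41, a membrane skeleton protein, rose in M-CSF from 160.2, 153 and 151 to 256, 227 and 219 CPM and fell with RANKL from 249, 262 and 239 to 175, 176 and 172 CPM. Its interaction was -1.12 (SE 0.10, adjusted p = 1.1e-07), and the media changed places between the days without overlap. Psme2, a proteasome activator subunit, Dnajb9, a chaperone of the endoplasmic reticulum, Numb, an inhibitor of Notch, and Vwa5a behaved alike, with interactions of -1.002, -1.09, -0.94 and -0.83. Slc5a3, an inositol transporter, and Myo10, an unconventional myosin, also rose in M-CSF and fell with RANKL but stayed above M-CSF at day 5, with interactions of -1.94 and -1.62.

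Some lists had like median day changes in both media, which does not show that each member moved alike. Of 30 interferon-stimulated genes, 11 rose in M-CSF and 10 with RANKL, beside 12.2% and 14.1% of tested genes, with medians of 1.05 and 0.90. With RANKL the list summed to 207 to 315 CPM at day 3 and to 352, 377 and 690 CPM at day 5, where library 3 stood apart. Of the 30, 26 were called lower with RANKL than in M-CSF at day 3 and 28 at day 5, beside 29.7% and 23.1% of tested genes. A called interaction was found for 1 of the 30. That gene, Oasl1 (-1.64), lost its call in 7 of the 12 fits without a single library. Ifi35 rose by 1.14 and 0.72, and its interaction was -0.42 (SE 0.21, adjusted p = 0.21). Of 18 inflammatory genes, 10 rose in M-CSF and 7 with RANKL, with medians of 1.34 and 1.35, but their interactions ranged from -2.43 to 2.52. Ccl3, a chemokine, rose by 0.94 and 1.72, with an interaction of 0.78 (adjusted p = 0.14). Pf4, a chemokine gene, rose by 1.99 in M-CSF and by 1.27 with RANKL, with an interaction of -0.72 (adjusted p = 0.35). From the 12 control libraries alone Pf4 was called lower, at -0.75 (adjusted p = 0.0397). Runx1 was at 93.2, 67.8 and 77.1 CPM at day 3 and 115, 109.5 and 92.5 CPM at day 5 in M-CSF, and at 52.4, 50.6 and 51.6 and then 71.5, 66.7 and 67.5 CPM with RANKL. It rose by 0.41 in each medium, and its interaction was -0.00 (SE 0.19, adjusted p = 1).

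**Figure D5:**
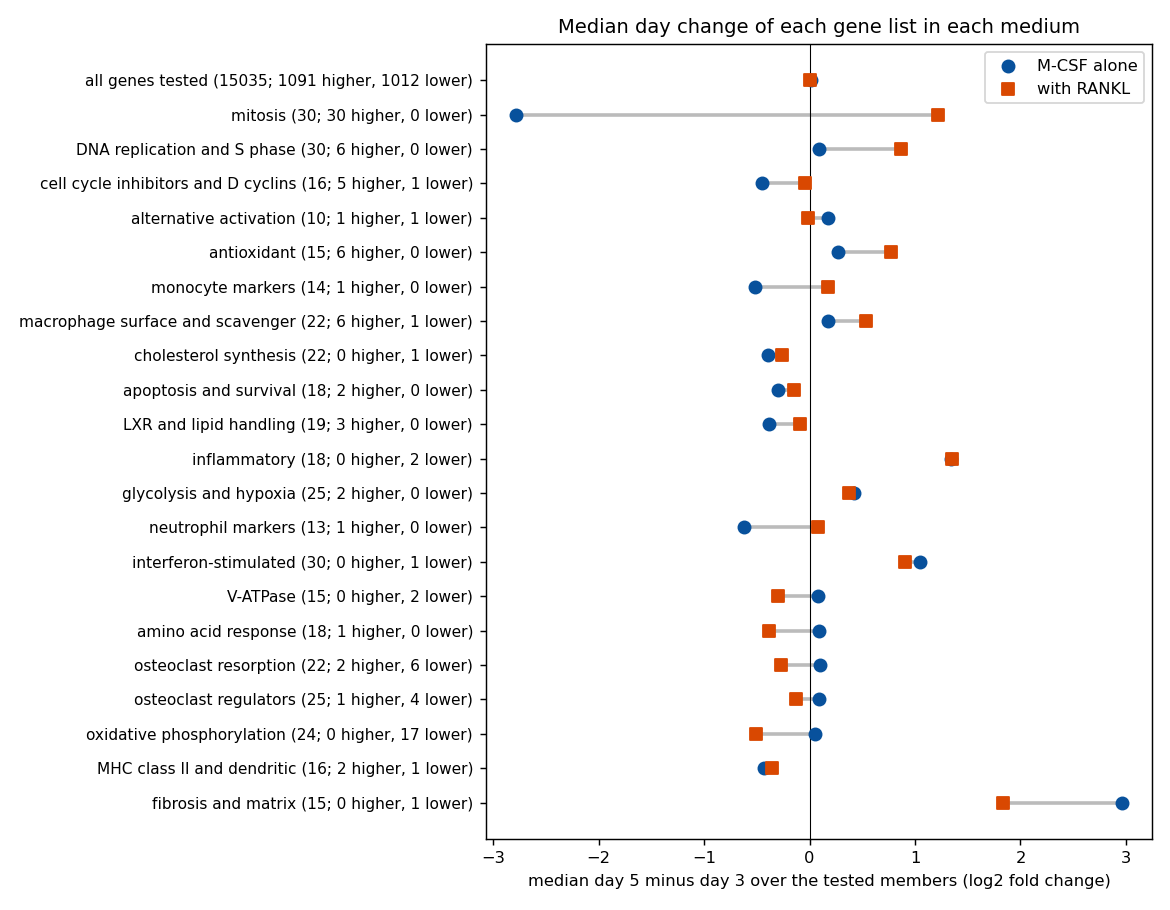
Median day 5 minus day 3 log2 fold change over the tested genes of each list with at least 10 tested, in M-CSF alone (circles) and with RANKL (squares), with the number of tested entries and of called interactions in brackets (Aldoa counts as 2 entries in the glycolysis list). The mitosis list is widest apart, at -2.78 and 1.22, and the interferon-stimulated and inflammatory lists lie above 0 in both media.

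In the LysM-Cre cells, which are separate libraries, the same interaction was higher for 1216 genes (8.09%) and lower for 1072 (7.13%). Of the 2103 genes called in control cells, 2090 (99.4%) had the same sign there, beside 77.1% of all tested genes, and 1513 (71.9%) were also called with that sign. All 30 mitosis genes were higher and 16 of the 24 oxidative phosphorylation genes were lower in those cells. By edgeR's quasi-likelihood test 0 genes (0%) differed in the interaction between the genotypes, with 287 at an unadjusted p under 0.05, and DESeq2 also called 0, with 339. The 287 are 1.91% of tested genes, under the share of 0.05 to be met if no gene differed. With 3 libraries in each group, the lack of calls does not show that the genotypes respond alike.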

How the data were processed

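RNA was sequenced from 12 control and 12 LysM-Cre libraries prepared from 250 ng of total RNA with a TruSeq RNA kit, per the labels' protocols. The authors deposited 1 table of raw counts, whole numbers for every gene and library. STAR, DESeq2 and build GRCm39 appear in the submitters' processing notes, and no source used here gives versions, strand or counting options. Gene positions are as deposited, and for 169 of 179 named genes they equal those of GENCODE M21 on GRCm38. Of these 179, 46 share an exon with another gene, 40 of them on the other strand (Kif20a, Ube2c, Plk1, Cdc20, Tk1, Lox, Dnmt3a, Serpinb9b and Runx1 among them), and their reads may not be separable; near-identical pseudogenes of H2afz and Prdx1 add the same doubt.

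Counts were filtered with filterByExpr, scaled by TMM and fitted in edgeR 4.0.16 (R 4.3.3) by a robust quasi-likelihood model with a coefficient for each of the 8 groups over all 24 libraries, so that groups share an estimate of the spread; the contrasts use control libraries only. Every adjusted p is Benjamini-Hochberg over all 15035 genes, called at 0.05, and SE is derived from the log2 change and its F statistic. The steps were tested on simulated data. Alternatives were DESeq2 1.42.0, other size factors, no filter, control libraries alone, a replicate block and omission of each library. Named genes were the 12 largest in each direction among called protein-coding genes averaging 1 log2 CPM or more, predicted genes left out, the 4 smallest p per class and direction, the 6 smallest p per direction among genes that turned sign, up to 4 members of each list by p, Ccnb2, Cenpf and Runx1. Further list members (Mki67, Plk1, Cdc20, Cdk1, Pole, Pola1, Pcna, Cdt1, Btg1, Ccng1, Atp5b, Sdha, Cat, Srxn1, Trem2, Folr2, Clec7a, Src, Ocstamp, Acp5 and Bhlhe40) were named after their values were seen. The libraries, lists and tests were chosen with earlier results of these data known. A result on 1 of the listed genes is not reported here.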

Additional observations from a re-analysis of the deposited data

Results flagged for a closer look

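The day change differed between media, by the interaction test itself, for 1091 genes that moved upward with RANKL relative to M-CSF and 1012 that moved downward. The response to RANKL was called at both days with opposite signs for 273 genes that turned to higher and 44 that turned to lower at day 5. Among the gene lists, the difference between media covered 30 mitosis genes in the upward direction and 17 oxidative phosphorylation genes in the downward direction. With 3 libraries in each group, no single library was tested as an outlier.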

How the results depend on the processing

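No alternative changed the 30 mitosis calls, and oxidative phosphorylation calls ranged from 13 to 20 of 24. With a replicate block 1183 genes were higher and 1127 lower, and 115 of 118 named calls held. Among printed list counts, the lower osteoclast regulators went from 4 to 8 and the lower macrophage genes from 1 to 2. Replication genes went from 6 to 8 higher and from 0 to 1 lower. The higher cell cycle inhibitors and D cyclins went from 5 to 6, and the higher resorption genes from 2 to 1. Deviations of same-numbered control libraries correlated from -0.0658 to 0.324 over 18 pairs and those of differently numbered ones from -0.292 to 0.0757 over 36. Since not every same-numbered pair passed 0.1, the numbers were not taken to pair the libraries, although the same-numbered range lies higher. This rule cannot show that the libraries were unpaired. Without the filter on low counts, 589 genes had a lower interaction, 1206 fell with RANKL, and the lower classes were 216 (M-CSF alone), 257 (RANKL) and 52 (both, opposite). DESeq2 gave 699 and 198 for the last pair of classes. The share of calls that were higher was 51.9%, against 44.5% with RLE size factors, 60.3% without the filter, 46% from control libraries alone and 42.8% by DESeq2.

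With libraries 1 and 2 of day 5 in M-CSF left out (chosen after seeing the data, with the lone library assumed to vary like the other groups), the interaction was higher for 592 genes and lower for 406. In M-CSF 204 rose and 359 fell. The higher classes held 94 (M-CSF alone) and 157 (both, opposite), the lower classes 58 (M-CSF alone), 261 (RANKL) and 14 (both, opposite), 203 genes turned sign and 3 replication genes were called. The interactions of Col1a1 (1.81), Col5a3 (3.37), Fstl1 (0.14), Htr1b (0.0090) and Runx1 (0.20) changed sign. That of Runx1 was also 0.032 without the filter and -0.16 to 0.10 with single libraries left out. The cause was not tested.

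Leaving out single libraries, the interaction was higher for 785 to 1042 genes and lower for 698 to 1052. In M-CSF 1003 to 2244 rose and 917 to 1959 fell, and with RANKL 1278 to 2195 rose and 1154 to 2234 fell. The higher classes held 190 to 343 (M-CSF alone), 244 to 457 (RANKL) and 228 to 290 (both, opposite), and the lower ones 227 to 469, 264 to 615 and 74 to 129. Replication calls ran from 4 to 12. Of 118 named genes with a call, 101 to 115 kept it, 97 kept it without the filter and 77 without libraries 1 and 2 of day 5 in M-CSF. Genes under about 1 CPM rest on few reads, since 1 read was 0.0403 to 0.0542 CPM.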
